A study of Caenorhabditis elegans with 6 samples.

Results

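Worms lack antibodies and circulating immune cells, and they meet bacterial pathogens mainly in the gut. Their intestinal cells respond with secreted proteins, which include lysozymes, lectins, saposin-like proteins and a large nematode group with a CUB-like domain. Many of these effector genes are switched on through the p38 MAP kinase PMK-1 or are influenced by the insulin pathway and its transcription factor DAF-16. Described here are 6 such genes outside the lectin families, taken by name from a table of 85 genes: *dod-24*, *irg-4*, *F55G11.2*, *dod-23*, *thn-2* and *spp-18*. All 6 were found in the table and all 6 had reads in every library, so no filter removed any of them.

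Polyadenylated RNA was sequenced from young adult *C. elegans*, about 2000 synchronized whole worms per sample, grown at 20 °C on *E. coli* OP50. There were 2 libraries each of wild-type N2 worms, *hlh-11* knock-out (KO) worms and *hlh-11* over-expression (OE) worms, all labelled strain N2. HLH-11 is a basic helix-loop-helix transcription factor. The study made its KO strain, a single allele, with CRISPR/Cas9 as a small replacement in the second exon that shifts the reading frame. The sources used here do not give the OE strain that was sequenced or the promoter of its transgene. The comparison asked which transcripts moved when HLH-11 was lost or raised.

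Values are RPKM, the reads of a gene scaled to its length and to the depth of its library, so levels of different genes can be compared. In every one of the 85 genes the wild-type mean lay between the KO mean and the OE mean, with 60 higher and 25 lower in KO. The table had thus been chosen on these same libraries, and the direction of each change below is a description of genes already selected for it, not independent evidence. The *hlh-11* transcript was not analysed here, so the genotype labels could not be checked against it. The RPKM steps gave whole reads for all 510 values, from which library totals of 16538554 to 24023096 reads were recovered. Whole-worm RNA does not tell fewer cells of a type from less RNA per cell. Differences were tested with limma on log2(RPKM + 0.5), which understates the change of low genes, with p-values adjusted by Benjamini-Hochberg across all 85 genes and called below 0.05. With 2 libraries against 2, an exact two-sided permutation test of a single gene cannot go below p = 0.333, so the calls rest on a model across the genes, with a spread that they share. Whether the replicates were separate cultures is not stated, and the p-values measure only the spread between these libraries.

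Compared with wild-type worms, 5 of the 6 genes were lower in *hlh-11* KO worms and higher in *hlh-11* OE worms, and *spp-18* was higher in KO and lower in OE. All 6 passed the threshold of limma in each genotype. Of all genes tested, 23.5% were called lower in KO and 94.1% were called in either direction. In OE 29.4% were called higher and 89.4% in either direction. For all 6 genes the libraries of each genotype lay wholly above or below those of the others. The table held this separation for 98.8% of genes in KO against wild type, 98.8% in OE against wild type and 100% in OE against KO, so nothing particular to these genes can be read from it. The median log2 change of the 6 was -1.57 in KO, against 0.52 over all 85 genes, and 1.06 in OE, against -0.42. Of the 25 genes with a lower KO mean, *dod-24*, *irg-4*, *F55G11.2* and *dod-23* held 4 of the 5 deepest log2 changes, at ranks 1, 3, 4 and 5, and *thn-2* was at rank 10.

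**Figure D1:**
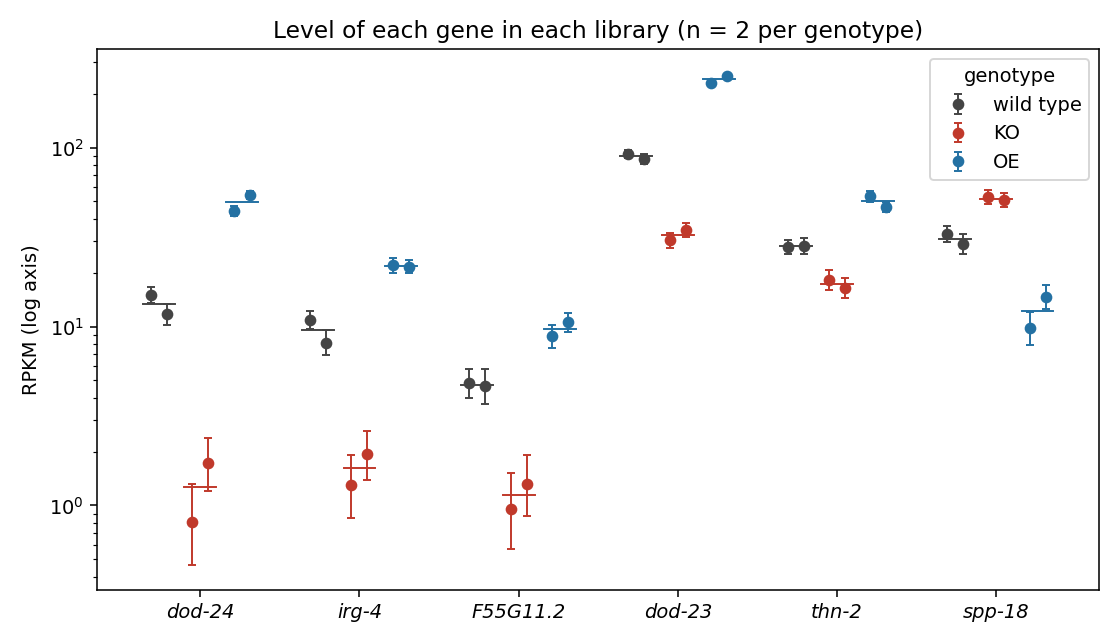
RPKM of each gene (log axis) in the 2 libraries of wild-type, KO and OE worms. Points are libraries, short lines are group means and bars are exact 95% Poisson intervals of the recovered reads. The KO points of *dod-24*, *irg-4* and *F55G11.2* lie between 0.810 and 1.93 RPKM, below every wild-type point of those genes, and *spp-18* alone has its KO points on top.

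*dod-24*, *irg-4* and *F55G11.2* encode proteins with a CUB-like domain, a feature of many secreted worm proteins made upon infection. The *dod* genes were named in earlier work for lying downstream of DAF-16, the worm FOXO factor. *dod-24* (WBGene00007875) lies on chromosome IV of WBcel235 from 12940106 to 12941354, on the minus strand, with 3 exons. It was at 14.9 and 11.72 RPKM in the wild-type libraries, 0.810 and 1.72 RPKM in the KO libraries and 44.2 and 54.6 RPKM in the OE libraries. It was low in KO, where the higher KO library was 6.83-fold below the lower wild-type library, and the 3 genotypes did not overlap. The mean in KO was 0.0948 ± 0.0508 of the wild-type mean and the mean in OE was 3.70 ± 0.840 times it (ratio with its SD, n = 2 per group). The log2 change was -3.01 in KO (adjusted p = 1.19e-49 from limma) and 1.85 in OE (adjusted p = 1.51e-24 from limma), each with a standard error of 0.16. Among the 85 genes it had the deepest change in KO and the highest in OE.

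The KO level of *dod-24* rests on 16 reads in KO replicate 1 and 37 reads in KO replicate 2. These allow 0.463 to 1.31 RPKM and 1.21 to 2.37 RPKM (exact 95% Poisson intervals, which cover counting error only). The log2 difference between these KO libraries, 1.08, was the widest of the 85 genes in KO, where the median was 0.10. Over the alternative settings tried, the log2 change stayed below 0 and ranged from -3.48 with limma voom on the recovered reads to -2.63 without KO replicate 1. With the spread of *dod-24* alone, which leaves 3 residual degrees of freedom, the gene had a standard error of 0.36 and an adjusted p of 0.0119 in KO and 0.0271 in OE, from limma's linear fit without empirical Bayes.

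*irg-4* (WBGene00008584), an infection response gene known as a target of the PMK-1 pathway, lies on chromosome IV from 12435833 to 12438236 on the plus strand, with 7 exons. The wild-type libraries had 10.9 and 8.13 RPKM, the KO libraries 1.30 and 1.93 RPKM and the OE libraries 21.96 and 21.61 RPKM. The KO libraries were low and the OE libraries high without overlap, and the OE libraries stood only 1.02-fold apart. The log2 change was -2.24 in KO (adjusted p = 2.94e-33 from limma), from 26 and 42 reads, and 1.17 in OE (adjusted p = 8.67e-12 from limma). As ratios of means this is 0.170 ± 0.0582 of the wild type in KO and 2.29 ± 0.470 times it in OE (SD, n = 2 per group). Against its own spread *irg-4* had a standard error of 0.24. The adjusted p was then 0.0119 in KO and 0.0305 in OE (limma's linear fit without empirical Bayes).

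*F55G11.2* (WBGene00010123), also known as a target of the PMK-1 pathway, was the least abundant of the 6 genes in the wild type. It lies on chromosome IV from 12967445 to 12969289 on the minus strand, with 8 exons. Wild-type libraries held it at 4.80 and 4.66 RPKM, KO libraries at 0.959 and 1.32 RPKM and OE libraries at 8.83 and 10.5 RPKM. The wild-type libraries nearly coincided, and the nearest KO library was 3.53-fold below them. Only 18 and 27 reads stand behind the KO values, with exact 95% Poisson intervals of 10.7 to 28.4 and 17.8 to 39.3 reads, and these intervals overlap. The log2 change of *F55G11.2* ran from -2.05 to -1.43 over the alternatives in KO, and in OE from 0.84 to 1.08.

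*dod-23* (WBGene00009898) was the most abundant of the 6 genes in wild-type and OE worms and the only one off chromosome IV. It lies on chromosome II from 8398161 to 8399164 on the minus strand, with 3 exons. Its level was 92.5 and 86.4 RPKM in wild-type worms, 30.4 and 34.6 RPKM in KO worms and 231 and 250.4 RPKM in OE worms, without overlap. The change was close to equal on either side, with a log2 change of -1.45 in KO (adjusted p = 7.00e-17 from limma) and 1.42 in OE (adjusted p = 3.30e-16 from limma). *dod-23* had 390 to 4440 reads per library. Its own standard error of 0.099 was below the pooled 0.16, and so was that of *thn-2*, also 0.099.

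*thn-2* (WBGene00009215) encodes a thaumatin-like protein, of a family known in plants for pathogen-induced antifungal proteins. It lies on chromosome IV from 12383170 to 12383974 on the plus strand, with 2 exons. It was at 27.8 and 28.4 RPKM in wild-type worms, 18.3 and 16.5 RPKM in KO worms and 53.5 and 46.7 RPKM in OE worms, again without overlap. Its KO change was the smallest of the 5 decreases, a log2 change of -0.68 (adjusted p = 4.33e-05 from limma), and in OE it rose by 0.82 (adjusted p = 9.65e-07 from limma). The nearest KO and wild-type libraries of *thn-2* were 1.52-fold apart, and the wild-type libraries 1.02-fold.

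*spp-18* (WBGene00005003) belongs to the saposin-like proteins, a family that includes pore-forming antimicrobial peptides of the worm gut. It lies on chromosome IV from 9593712 to 9594413 on the plus strand, with 4 exons. The libraries had 33.01 and 28.96 RPKM in wild-type worms, 52.9 and 50.9 RPKM in KO worms and 9.79 and 14.7 RPKM in OE worms. It was thus high in KO and low in OE, the reverse of the other 5 genes, again without overlap. The mean in KO was 1.68 ± 0.162 times that of the wild type and the mean in OE 0.395 ± 0.117 of it (ratio with its SD, n = 2 per group). The log2 change of *spp-18* was 0.74 in KO (adjusted p = 8.90e-06 from limma) and -1.33 in OE (adjusted p = 1.42e-14 from limma). Against its own spread the KO change did not pass (adjusted p = 0.0587, limma's linear fit without empirical Bayes), while the OE change did (adjusted p = 0.0244). The OE libraries, with 93 and 175 reads, differed by 0.58 on the log2 scale, and without OE replicate 1 and without OE replicate 2 the OE change was -1.05 and -1.61.

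**Figure D2:**
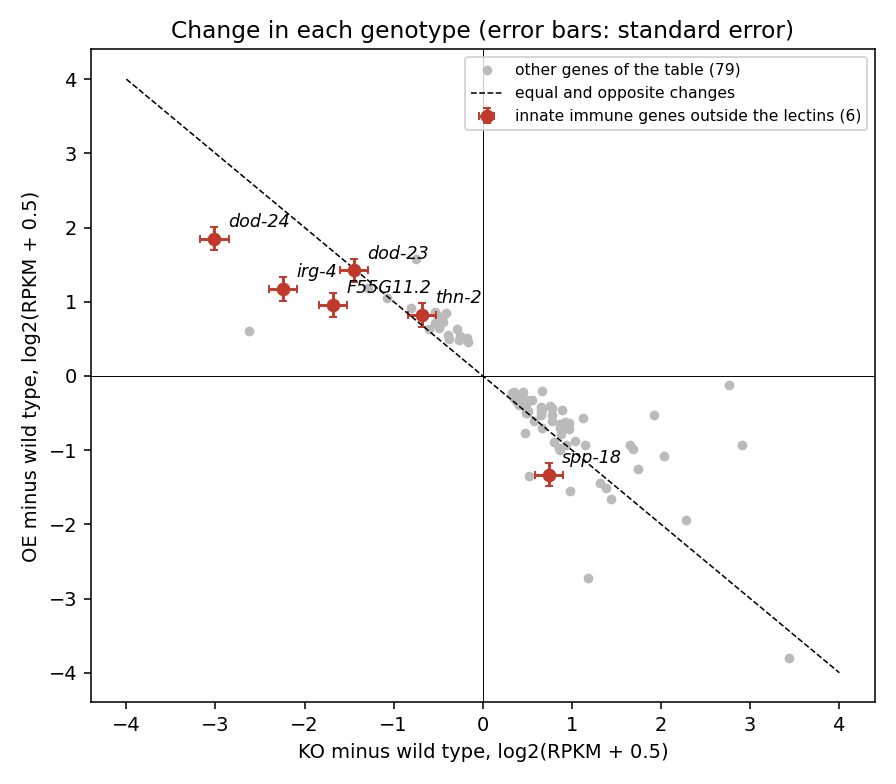
Log2 change of each gene in KO (horizontal) and OE (vertical) worms on the log2(RPKM + 0.5) scale, with standard errors of 0.16 for the 6 genes and grey points for the other 79 of the table. *dod-24*, *irg-4*, *F55G11.2* and *spp-18* lie left of the dashed line of equal and opposite changes, and *dod-23* lies on it. *spp-18* is the only 1 of the 6 in the lower right.

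The order of the levels differed between the genotypes. In the wild type the order by mean RPKM was *dod-23* at 89.4, *spp-18* at 30.98, *thn-2* at 28.1, *dod-24* at 13.3, *irg-4* at 9.50 and *F55G11.2* at 4.73. The step was small between *spp-18* and *thn-2*, whose nearest libraries were at 28.96 and 28.4 RPKM. In KO *spp-18* came first at 51.9 RPKM, followed by *dod-23* at 32.5 and *thn-2* at 17.4. The 3 CUB-like genes then lay together at 1.62 for *irg-4*, 1.26 for *dod-24* and 1.14 for *F55G11.2*, with overlapping libraries, and held the lowest ranks of the 85 genes (83, 84 and 85). In OE *dod-23* led at 241 RPKM. *thn-2* at 50.1 and *dod-24* at 49.4 followed with overlapping libraries, then *irg-4* at 21.8, and *spp-18* at 12.2 and *F55G11.2* at 9.69, which also overlapped. *dod-24* moved from rank 84 in KO to rank 48 in OE among the 85 genes.

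Between OE and KO worms, *dod-24* stood furthest apart. Its mean was 39.1 ± 20.7 times higher in OE (SD of the ratio, n = 2 per group), with a KO mean that rests on 16 and 37 reads. The ratio was 13.5 ± 3.70 for *irg-4*, 8.504 ± 2.177 for *F55G11.2*, 7.41 ± 0.811 for *dod-23* and 2.89 ± 0.347 for *thn-2*. For *spp-18* the OE mean was 0.236 ± 0.0667 of the KO mean. In limma, fitted to all 6 libraries, 5 of the 6 genes were higher in OE than in KO, against 29.4% of all genes tested, and *spp-18* was lower. The share called in either direction was 100%.

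The sizes of the KO and OE changes were compared through the sum of both log2 changes, which is 0 where they are equal and opposite. Both contrasts share the wild-type libraries. Of the 6 genes only *dod-24* and *irg-4* passed, both with a sum below 0, as did 5.88% of all genes tested. Counted in either direction, 8 of the other 79 genes passed. The sum was -1.16 for *dod-24* (95% interval -1.69 to -0.62, adjusted p = 4.15e-04 from limma) and -1.07 for *irg-4* (95% interval -1.61 to -0.54, adjusted p = 0.00128 from limma), with the KO change the larger in each. The OE change of *irg-4* was 52.2% of its KO change on the log2 scale, that of *dod-24* 61.5% and that of *F55G11.2* 56.9%. The added 0.5 RPKM understates the KO changes of these genes, which were low there. With 0.1 or 1 RPKM added instead, the sum was -1.49 or -0.87 for *dod-24* and -1.29 or -0.87 for *irg-4*. For *F55G11.2* it was -0.96 or -0.53. *F55G11.2*, with a sum of -0.73, missed the threshold (adjusted p = 0.0582 from limma). So did *spp-18*, with -0.59 and the OE change the larger (adjusted p = 0.184 from limma). The sum was -0.03 for *dod-23* (95% interval -0.56 to 0.51) and 0.14 for *thn-2* (95% interval -0.39 to 0.68), intervals that leave room for unequal changes. Whether the sums of *dod-24* and *irg-4* passed changed with single libraries, and their sign did not. *dod-24* and *irg-4* both missed the threshold without wild type replicate 1, wild type replicate 2, KO replicate 1 or OE replicate 1, when 0 of the 6 genes passed. They also missed it without OE replicate 2, when *spp-18* was the 1 gene that passed (adjusted p = 0.0298 from limma), and both passed without KO replicate 2. Over these fits the sum ranged from -1.54 to -0.78 for *dod-24* and from -1.47 to -0.67 for *irg-4*, with standard errors of 0.32 to 0.54 and 0.32 to 0.36, against 0.27 with all libraries. The sum of *irg-4* was smallest, -0.67, without wild type replicate 1, but stayed at -1.08 and -1.06 without OE replicate 1 and OE replicate 2. Without wild type replicate 2 the sums were -1.50 for *dod-24* and -1.47 for *irg-4*, further from 0 than in the full fit. With each gene against its own spread 0 of the 6 passed, with no unadjusted p under 0.05 and adjusted p of 0.626 for *dod-24* and 0.474 for *irg-4* (limma without empirical Bayes). With limma voom on the recovered reads 2 passed.

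**Figure D3:**
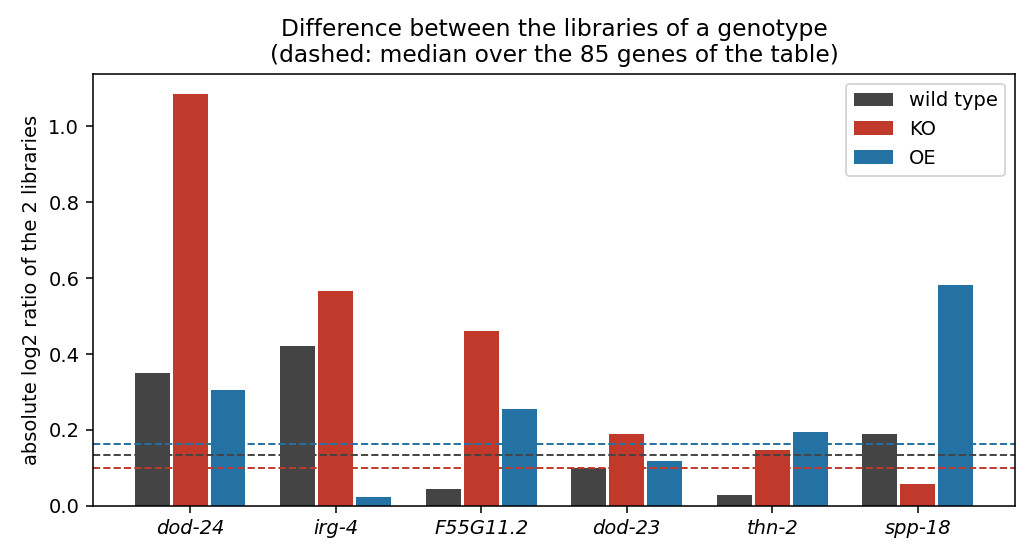
Absolute log2 ratio between the 2 libraries of a genotype for each gene, as bars, with dashed lines for the median over the 85 genes in each genotype (0.13 in wild type, 0.10 in KO, 0.16 in OE). The KO bar of *dod-24* is the tallest at 1.08, and *spp-18* in OE reaches 0.58.

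In KO the libraries differed most for the 3 CUB-like genes, which had the fewest reads there. Beside *dod-24*, the log2 difference between the libraries was 0.57 for *irg-4* and 0.46 for *F55G11.2*, but 0.19 for *dod-23*, 0.15 for *thn-2* and 0.06 for *spp-18*. In KO the 4 genes *dod-24*, *irg-4*, *F55G11.2* and *dod-23* were all lower in replicate 1 than in replicate 2, and *thn-2* and *spp-18* were higher in it. In the wild type *dod-24* and *irg-4* differed by 0.35 and 0.42, more than the table's median of 0.13.

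Position was not used to choose these genes. On chromosome IV lie 5 of the 6, against 16 of the 85 genes of the table (18.8%). *dod-24* and *F55G11.2* are each other's nearest genes of the table, 26.1 kb apart on the same strand with 7 annotated protein-coding genes between them. *irg-4* and *thn-2* are likewise nearest neighbours, 51.9 kb apart with 12 protein-coding genes between. *spp-18* stands apart from these, 281 kb from its nearest gene of the table, *F49C12.7*. None of the 6 overlaps another annotated gene on either strand. The CUB-like genes belong to families of related sequences, and whether reads were shared with relatives was not tested.

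The table holds 13 of 87 genes of a wider list for innate immunity, and the 7 beside the genes above are lectins: the C-type lectin genes *clec-10*, *clec-63*, *clec-67* and *clec-85*, and the galectin genes *lec-2*, *lec-9* and *lec-10*. C-type lectins and galectins both bind sugars. In KO 6 of these 7 were higher and 1, *clec-10*, was lower, and in OE 1 was higher and 6 were lower, all past the threshold of limma. Of all genes tested, 70.6% were called higher in KO. Of the 79 genes beside the 6 described here, 59 were called higher in KO and 50 lower in OE. Most of the table thus went the same way, and nothing particular to the lectins is read from these counts. *clec-10* had log2 changes of -0.46 in KO and 0.77 in OE. No test of the lectins against the other genes was made, since all were selected for opposite changes.

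**Figure D4:**
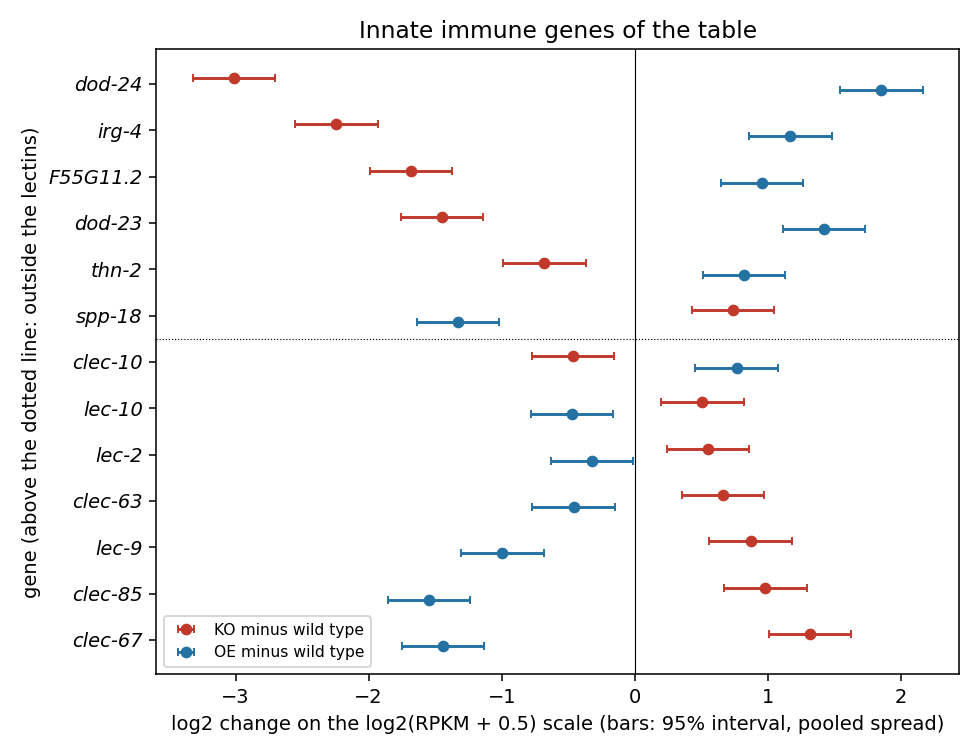
Log2 change in KO and OE worms, with 95% intervals from the pooled spread, for the 6 genes outside the lectin families (above the dotted line) and the 7 lectin genes of the table. KO points lie left of 0 for 5 of the upper 6 genes and for *clec-10*, and right of 0 for *spp-18* and the other 6 lectin genes.

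Likeness of patterns was measured by the root mean square difference of log2(RPKM + 0.5), relative to the wild-type mean, over the 6 libraries. Among the 6 genes the closest pairs were *dod-23* and *F55G11.2* at 0.31, *irg-4* and *F55G11.2* at 0.37, and *dod-23* and *irg-4* at 0.49. The gene closest to *dod-24* was *irg-4*, at 0.61, and *spp-18* was at least 1.51 from each of the others. Elsewhere in the table, the closest to *dod-23* were *Y57G11B.5* at 0.18 and *ZK105.1* at 0.32, and for *F55G11.2* the same genes came closest at 0.28 and 0.39. Outside the 6 genes, the closest to *dod-24* were *F46F2.3* at 0.83 and *Y57G11B.5* at 1.08. These genes were also the closest to *irg-4*, at 0.48 and 0.55. *F46F2.3* had a log2 change of -2.62 in KO but 0.61 in OE, and *Y57G11B.5* had -1.29 and 1.18. For *thn-2* the closest were *gst-4*, which encodes a glutathione S-transferase, at 0.16 and *ZK813.1* at 0.17. For *spp-18* they were the endonuclease family gene *endu-2* at 0.14 and the C-type lectin gene *clec-85* at 0.20. These distances describe 6 libraries of genes selected alike.

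Marker genes of sperm, intestine and cuticle in the table moved with the genotypes too. The 6 sperm genes of the table, of 32 on a list, summed to 636 to 806 RPKM in the wild-type libraries, 1288 to 1328 in KO and 417 to 489 in OE. The 4 intestinal genes, of 20 on a list, summed to 1971 to 2012 RPKM in the wild type, 2924 to 2936 in KO and 1427 to 1633 in OE. For the 7 cuticle collagen genes, of 15 on a list, the sums were 5404 to 6024, 8018 to 8673 and 4268 to 4567 RPKM. A few collagen genes, with wild-type means of 1709 to 2069 RPKM, made up most of these sums. In OE 2 of the 7 collagen genes and 1 of the 4 intestinal genes did not pass the threshold of limma. None of these marker genes was at 0 in any library. The sums hold only list genes that were selected into the table for opposite changes. The vitellogenin genes of the intestinal list are not in it, and the study reported that all of them were suppressed in KO. The sums thus do not stand for all markers of a tissue. All 3 sums moved the way of *spp-18* and against the other 5 genes, as did most of the table. Their part in the changes of the 6 genes was not tested, and genotype and any difference in developmental age cannot be told apart here. The table holds 0 of the listed markers of muscle, neurons, oocytes and embryos, so these could not be followed.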

How the data were processed

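The authors aligned the reads to WBcel235 with TopHat2, and the submitters' processing notes also name FastQC 0.11.5 and DESeq2. The authors deposited RPKM per gene and library. How reads were counted, and with which strand setting, is not stated in those sources. All 85 gene identifiers matched a symbol, and coordinates come from the WBcel235 annotation. Reads, lengths and totals were recovered from the RPKM steps by requiring whole reads in all libraries (510 of 510 values within 0.0001 reads), without annotated lengths, and the totals came out whole. The median ratio of recovered to annotated exon length was 1.01. The 2 lengths were within 10% of each other for 61 of the 85 genes and equal for 3. Whether totals count mapped or assigned reads is unknown. The recovery and the fit were also run on simulated data, and the outcomes are not reported here.

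Linear models were fitted to log2(RPKM + 0.5) of all 85 genes in 6 libraries with limma 3.58.1 (R 4.3.3), with two-sided moderated tests and a constant prior. The prior made every gene take the pooled SD of 0.16. Contrasts were KO minus wild type, OE minus wild type, OE minus KO and the sum of the first 2 changes. Alternatives were pseudocounts of 0.1 and 1, a minimum mean of 2 RPKM, limma-trend, no empirical Bayes, voom on recovered reads, only the groups compared, a replicate block and leaving out each library. Libraries of a group differed beyond counting noise (chi-square per degree of freedom 10.4 to 19.9). All libraries were kept. The 6 genes are all named. For each, the 2 closest patterns and the nearest gene of the table, and the other genes of the immunity list, could also be named, and *clec-10* was singled out after its values were seen. The members and lists were chosen with earlier results of these data known.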

Additional observations from a re-analysis of the deposited data

How the results depend on the processing

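The KO, OE and OE against KO changes of the 6 genes kept their direction in all 252 recomputed values, and 251 stayed past the threshold. The exception was *spp-18* in KO without empirical Bayes (log2 change 0.74, adjusted p = 0.0587), where 5 of the 6 genes passed. Many of these values could not change direction, because the setting alters only the spread and leaves the log2 change as it was. This holds for limma-trend, no empirical Bayes, only the groups compared and the replicate block. It also holds for leaving out a library of the group not compared. The selection of the table had set the directions as well. For the sum of KO and OE changes the number of genes passing was 0 without empirical Bayes and 0 to 2 when single libraries were left out, against 2 in the full fit. With a pseudocount of 0.1 it was 3, when *F55G11.2* also passed (adjusted p = 0.0242), and without OE replicate 2 *spp-18* was the 1 gene that passed (adjusted p = 0.0298). The sum of *dod-23*, -0.03, changed sign to 0.071 without wild type replicate 1, 0.066 without KO replicate 1 and 0.032 without OE replicate 1, and ranged from -0.126 to 0.071 over the left-out libraries. The filter at 2 RPKM removed 0 genes and left each value as it was. With the replicate number as a block all 6 genes passed in KO, OE and OE against KO, and 2 for the sum. Same-numbered libraries did not deviate together over the genes of the table (correlations of -0.14, -0.11 and -0.13 between groups). With 2 libraries per group and selected genes, this cannot show whether they shared a batch or culture. No other scaling of the libraries was tried, since the table holds only selected genes. Low depth limits *dod-24*, *irg-4* and *F55G11.2* in KO, at 16 to 42 reads per library.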
